A study of Mus musculus with 12 samples.

Results

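The genes described here are 10 of the 48709 genes in the count table: the NF-κB subunits of the canonical arm (Nfkb1, Rel and Rela), the subunits of the noncanonical arm (Nfkb2 and Relb), the inhibitors Nfkbia, Nfkbib and Nfkbie, the Ras-like regulator Nkiras2 and the IKK regulatory subunit Ikbkg. They were taken by name as the core of the pathway, so that the subunits of the canonical arm could be set against those of the noncanonical arm and their inhibitors. All 10 passed the filter on low counts, which asked for more than 1 CPM (counts scaled to the size of the library) in at least 3 libraries.

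Neutrophils were sorted as Ly6Ghi Ly6Cint CD11b+ CD45+ cells from male C57BL/6N mice 8 to 10 weeks old. Control splenic neutrophils came from the spleens of untreated mice (n = 3 libraries). Liver neutrophils came from mice given 1 intraperitoneal dose of carbon tetrachloride (CCl4), a hepatotoxin, at 1 mL/kg in corn oil. They were taken 24 hours (n = 4 libraries) or 72 hours (n = 5 libraries) later, hereafter 24-hour and 72-hour neutrophils. Organ and injury changed together in both comparisons with the spleen and cannot be told apart, and both comparisons used the same 3 spleen libraries. In such bulk samples, fewer cells of a type and less RNA per cell cannot be told apart either.

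NF-κB is a family of transcription factors that sit in the cytoplasm of resting cells bound to inhibitors of the IκB family. In the canonical arm, signals from receptors such as Tlr2, Tnfrsf1a and the IL-1 receptor activate the IKK complex, which holds the catalytic subunits Chuk and Ikbkb and the regulatory subunit Ikbkg (NEMO). IKK marks IκB proteins for degradation and so frees dimers such as p50 (from Nfkb1) with RelA. In the noncanonical arm, receptors such as Ltbr and Cd40 stabilise the kinase Map3k14 (NIK), which is otherwise kept low by Traf3, Traf2 and Birc3, and the Nfkb2 product p100 is then processed to p52, the partner of RelB. Nfkbia, Nfkb2, Relb and Tnfaip3 are themselves transcribed by NF-κB and serve in textbooks as examples of its feedback. In neutrophils the pathway is known for driving cytokines, chemokines and survival genes. The libraries measure transcripts, not processing of p100, degradation of IκB or entry into the nucleus.

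The promoters of the 3 inhibitors, of Nfkb2 and of Rel and Rela are shown because κB sites are the sequence through which NF-κB binds DNA, and both windows with and windows without a match to such a site are among them. The windows run from 250 bases before to 50 bases after the transcription start and come from RefSeq (GRCm38.p6). Of the 10 genes, 8 were in the promoter table; Nfkb1 and Relb were not. Capitals mark matches to the κB consensus of 10 letters on either strand, and matches that overlap run together.
Nfkbia, chr12:55492598-55492897, minus strand: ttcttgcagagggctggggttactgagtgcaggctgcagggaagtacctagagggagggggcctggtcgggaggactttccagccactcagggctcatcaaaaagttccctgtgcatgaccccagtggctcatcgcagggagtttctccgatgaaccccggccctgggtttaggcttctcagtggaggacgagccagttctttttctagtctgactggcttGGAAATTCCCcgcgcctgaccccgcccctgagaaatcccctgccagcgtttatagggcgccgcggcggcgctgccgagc
Nfkbie, chr17:45555450-45555749, plus strand: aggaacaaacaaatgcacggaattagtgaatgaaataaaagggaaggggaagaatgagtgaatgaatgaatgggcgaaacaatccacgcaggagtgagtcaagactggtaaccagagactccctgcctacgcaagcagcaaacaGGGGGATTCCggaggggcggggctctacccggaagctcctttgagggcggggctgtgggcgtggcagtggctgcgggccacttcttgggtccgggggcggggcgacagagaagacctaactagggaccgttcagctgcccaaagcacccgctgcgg
Nfkbib, chr7:28766595-28766894, minus strand: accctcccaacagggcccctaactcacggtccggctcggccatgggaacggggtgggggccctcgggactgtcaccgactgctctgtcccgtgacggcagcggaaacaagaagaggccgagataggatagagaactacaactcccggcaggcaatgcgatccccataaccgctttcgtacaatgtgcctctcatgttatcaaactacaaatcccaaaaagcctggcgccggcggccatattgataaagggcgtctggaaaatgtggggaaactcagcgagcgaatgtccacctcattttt
Nfkb2, first start, chr19:46304487-46304786, plus strand: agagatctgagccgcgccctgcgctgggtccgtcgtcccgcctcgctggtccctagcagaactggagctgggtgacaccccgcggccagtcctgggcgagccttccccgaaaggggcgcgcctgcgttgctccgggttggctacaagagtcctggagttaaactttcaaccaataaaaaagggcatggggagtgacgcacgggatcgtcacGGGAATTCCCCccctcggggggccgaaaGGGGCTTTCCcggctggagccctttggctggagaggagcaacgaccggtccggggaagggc
Nfkb2, second start, chr19:46305445-46305744, plus strand: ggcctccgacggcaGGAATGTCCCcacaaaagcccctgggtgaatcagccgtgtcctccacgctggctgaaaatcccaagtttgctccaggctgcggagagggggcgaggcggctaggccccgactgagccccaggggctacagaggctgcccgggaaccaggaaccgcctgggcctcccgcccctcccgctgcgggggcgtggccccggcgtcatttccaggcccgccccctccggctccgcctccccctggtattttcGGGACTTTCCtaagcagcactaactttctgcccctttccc
Rel, chr11:23770920-23771219, minus strand: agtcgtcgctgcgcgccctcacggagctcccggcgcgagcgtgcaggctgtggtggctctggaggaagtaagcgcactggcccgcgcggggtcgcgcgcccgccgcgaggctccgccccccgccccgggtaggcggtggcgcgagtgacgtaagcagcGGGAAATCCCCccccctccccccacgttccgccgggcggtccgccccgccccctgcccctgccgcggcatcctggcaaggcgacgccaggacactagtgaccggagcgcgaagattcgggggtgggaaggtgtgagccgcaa
Rela, chr19:5637291-5637590, plus strand: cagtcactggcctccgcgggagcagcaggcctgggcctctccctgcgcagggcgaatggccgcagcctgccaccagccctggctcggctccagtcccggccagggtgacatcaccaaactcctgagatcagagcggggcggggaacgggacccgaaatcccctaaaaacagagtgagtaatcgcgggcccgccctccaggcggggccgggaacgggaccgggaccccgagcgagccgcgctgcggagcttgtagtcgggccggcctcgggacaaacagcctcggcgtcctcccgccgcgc

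The consensus was matched in a window of 4 of these 8 genes (Nfkbia, Nfkbie, Nfkb2 and Rel), in none of Nfkbib, Rela, Nkiras2 and Ikbkg, and in 8.46% of all 32851 promoter windows. At the first start of Nfkb2 the matches begin 39, 38 and 11 bases before the transcription start, and the window lies within the bounds of AC114539.1, a gene on the opposite strand. The Nfkbia match starts 29 bases before the transcription start, the Nfkbie match 106 bases before it and the first Rel match 92 bases before it. A match is a description of letters and was not tested as a binding site. The 8 genes have 13 windows, of which 6 hold the consensus, since a gene with several starts has several windows.

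Each library had 1267089 to 3017403 counts on genes, so that 1 count was worth 0.31 to 0.729 CPM after TMM scaling, a correction of library size that trims genes of extreme ratio. The TMM factors were 1.17 to 1.24 in the spleen, 0.74 to 0.86 at 24 hours and 1.03 to 1.14 at 72 hours. A lower factor raises the normalized CPM, so 24-hour values stand higher against the spleen than by library size alone. Between 2.71% and 3.18% of uniquely aligned reads were counted on a gene. In 72-hour replicates 2 and 3 the share of reads left unaligned was 1.91% and 1.98%, against 49.6% to 50.7% in the other libraries. Reads that could belong to more than 1 gene made up 7.36% of counted and ambiguous reads in 24-hour replicate 4, against 0.647% to 1.15% elsewhere. Spleen replicate 3 also stood apart: chi-square over degrees of freedom, taken over tested genes, was 30.8 and 34.13 between it and replicates 1 and 2, against 2.34 between those. S100a8, a neutrophil alarmin gene, was at 80.1 CPM in that replicate and at 1310 and 1370 CPM in the other spleen libraries. The calls of the 10 genes, and the calls lost among other genes of the pathway, are given below without these 4 libraries where that ended them. All 12 listed neutrophil markers were detected in each group, with summed levels of 2070 to 8180 CPM in the spleen, 1250 to 3100 CPM at 24 hours and 2200 to 2980 CPM at 72 hours. A list of 9 markers of immature neutrophils, of which 6 passed the filter, summed to 2570 to 4450 CPM in the spleen, 874 to 1280 CPM at 24 hours and 974 to 1530 CPM at 72 hours and Elane was at 0 throughout. In the liver libraries and spleen replicate 3 that sum is carried by Mki67, a proliferation marker, and in spleen replicates 1 and 2 by Ltf and Ngp. Mki67 was at 674, 702 and 2010 CPM in the spleen, 805 to 1260 CPM at 24 hours and 942 to 1490 CPM at 72 hours. These levels are not read as proliferation, since the strand on which reads were counted was not tested, as set out below. The granule genes of the list differed far more than the sum: Ltf was at 1710, 1640 and 208 CPM in the spleen and at 0.707 to 13.9 CPM in the liver libraries, Ngp at 1890, 1890 and 339 CPM and at 2.48 to 53 CPM, and Camp at 170, 175 and 8.04 CPM and at 0 to 2.08 CPM. The 10 macrophage and monocyte markers summed to 90.5 to 155 CPM, 134 to 205 CPM and 122 to 186 CPM in the same order, with Clec4f and C1qa at 0 in every library. The 8 hepatocyte markers summed to 2.32 to 6.11 CPM, 14.8 to 19.8 CPM and 3.25 to 30 CPM, with Ttr at 0. The 6 endothelial markers summed to 111 to 116 CPM, 53.6 to 91.9 CPM and 62.5 to 107 CPM, with Cdh5 and Kdr at 0, the 8 B cell markers to 47.5 to 59.8 CPM, 35.4 to 71.4 CPM and 34.4 to 50.8 CPM, and the 6 dendritic cell markers to 7.43 to 45.7 CPM, 3.78 to 7.07 CPM and 10.4 to 16 CPM, with Ccr7 at 0. T cell and erythroid lists stayed below 10 CPM in every library, with Cd3e, Cd4, Hba-a1 and Hbb-bs at 0. The part of these levels in the results below was not tested.

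Groups were compared by edgeR (quasi-likelihood F test, all 12 libraries fitted together), and p-values were adjusted after Benjamini and Hochberg over 12488 genes. Genes count as called where the adjusted p lies below 0.05 and the log2 difference reaches 0.5 in size. The p-values measure the spread between these samples. The median log2 difference of all tested genes was -0.23 at 24 hours against spleen, -0.02 at 72 hours against spleen and 0.18 at 72 hours against 24 hours.

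Of the 10 genes, 4 have exons that partly coincide with exons of a gene transcribed from the opposite strand (GENCODE M21, GRCm38). Nfkb2 (chr19:46304320-46312385, plus strand) shares 830 bases, 18.1% of its exon bases, of which 299 are with Psd and 531 with AC114539.1. Nfkbib (chr7:28758251-28767512, minus strand) shares 314 bases with Ccer2 and 42 with Sirt2. Nkiras2 (chr11:100619244-100627607, plus strand) shares 287 bases with Dnajc7 and 65 with Zfp385c. Ikbkg (chrX:74393290-74453854, plus strand) shares 418 bases with G6pdx. Nfkb1, Rel, Rela, Relb, Nfkbia and Nfkbie share none. The library kit keeps strand, and which strand option the counter was run with is not given in the sources used here. Of all tested genes, 39.8% have such an overlap and they hold 85% of the counts; the 20 genes with the highest totals are all among them, and the 300 genes with the highest totals include 2 of the 12 neutrophil markers. Reads of an overlapping gene and of its partner on the opposite strand can therefore not be told apart in these counts, and the levels of Nfkb2, Nfkbib, Nkiras2 and Ikbkg carry this limit throughout. Of uniquely aligned reads, 2.71% to 3.18% were counted on a gene. Whether reads were counted on the strand of each gene or on the one opposite to it was not tested. This bears on the levels of all 10 genes and of every other gene named here, partners and markers included.

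None of the 3 subunits of the canonical arm was called in any comparison, and their groups overlapped in each. Of the 9 edgeR tests behind this, 0 had an unadjusted p below 0.05, and neither DESeq2 nor limma-voom called any of the 3. Nfkb1 (chr3:135584655-135691547), which encodes p105 and p50, was at 21.8, 26.8 and 22.5 normalized CPM in the 3 spleen libraries, at 32.2, 30, 17.0 and 13.1 CPM in the 4 libraries of 24-hour neutrophils, and at 20.6, 19.0, 18, 20.1 and 24.7 CPM in the 5 libraries of 72-hour neutrophils. The 24-hour libraries of Nfkb1 lay on both sides of the spleen and of the 72-hour values. The log2 difference of Nfkb1 at 24 hours was -0.03 (95% interval -0.73 to 0.67, edgeR adjusted p = 0.967), and it was -0.22 at 72 hours (-0.88 to 0.44, edgeR adjusted p = 0.827).

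Rela (chr19:5637483-5648130), the main transactivating subunit, was at 10.7, 17.0 and 14.5 CPM in the spleen, 21.4, 18.6, 4.24 and 17.5 CPM at 24 hours, and 15.7, 16.6, 24.1, 15.3 and 9.08 CPM at 72 hours. The lowest Rela value, in 24-hour replicate 3, rested on 6 counts. Rela differed from the spleen by 0.14 on the log2 scale at 24 hours (-0.78 to 1.05, edgeR adjusted p = 0.883) and by 0.21 at 72 hours (-0.65 to 1.07, edgeR adjusted p = 0.882). Rel (chr11:23736847-23770970), which encodes c-Rel, was at 9.28, 12.7 and 10.3 CPM in the spleen, 18.9, 8.40, 12.7 and 13.1 CPM at 24 hours, and 14.1, 15.9, 15.2, 10.4 and 5.84 CPM at 72 hours. Its groups overlapped as well, with log2 differences of 0.30 (-0.56 to 1.16) at 24 hours and 0.21 (-0.60 to 1.02) at 72 hours.

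The subunits of the noncanonical arm were both higher in 24-hour neutrophils than in the spleen. Nfkb2, the gene of p100 and p52, was at 29.2, 32.6 and 22.8 CPM in the spleen and at 60.5, 74.4, 53.0 and 54.7 CPM at 24 hours, so that every 24-hour library lay above every spleen library. It was at 35.2, 39.7, 32.8, 17.4 and 26.0 CPM at 72 hours, below all 24-hour libraries and around the spleen values. Nfkb2 rose by 1.11 on the log2 scale at 24 hours (SE 0.30, edgeR adjusted p = 0.0234), differed from the spleen by 0.11 at 72 hours (-0.48 to 0.71, edgeR adjusted p = 0.918), and was lower at 72 hours than at 24 hours, with a log2 difference of -0.99 (SE 0.26, edgeR adjusted p = 0.0329). At a fold limit of 1 on the log2 scale the last of these was not called. The 24-hour call of Nfkb2 was lost without any 1 of the 3 spleen libraries or 24-hour replicate 2, with edgeR adjusted p between 0.0555 and 0.0772. Its lower level at 72 hours than at 24 hours was not called without 24-hour replicate 1, 2 or 4 or 72-hour replicate 1, 3, 4 or 5, with edgeR adjusted p from 0.0511 to 0.107.

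Relb (chr7:19606217-19629438), the partner of p52 and a gene with no exon shared on the opposite strand, was at 6.49, 2.54 and 3.22 CPM in the spleen. It was at 13.9, 22.8, 9.19 and 15.3 CPM at 24 hours, again with no overlap, from 13 to 38 counts a library. By count, spleen replicate 1 had 14 of 1744084 counts on Relb and 24-hour replicate 3 had 13 of 1781445. The lack of overlap thus holds after TMM scaling and not on library size alone. Relb rose by 1.92 on the log2 scale (SE 0.58, edgeR adjusted p = 0.0397), a call that was lost without any 1 spleen library or 24-hour replicate 1, 2 or 4, with edgeR adjusted p from 0.0503 to 0.159. At 72 hours the Relb libraries spread from values like those at 24 hours to values like those of the spleen: 13.0 CPM in replicate 1, 11.1 in replicate 2, 6.81 in replicate 3, 2.78 in replicate 4 and 1.95 in replicate 5. The log2 difference of Relb at 72 hours was 0.86 against spleen (-0.30 to 2.03, edgeR adjusted p = 0.488) and -1.06 against 24 hours (-2.05 to -0.07, edgeR adjusted p = 0.205), so neither was called.

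**Figure D1:**
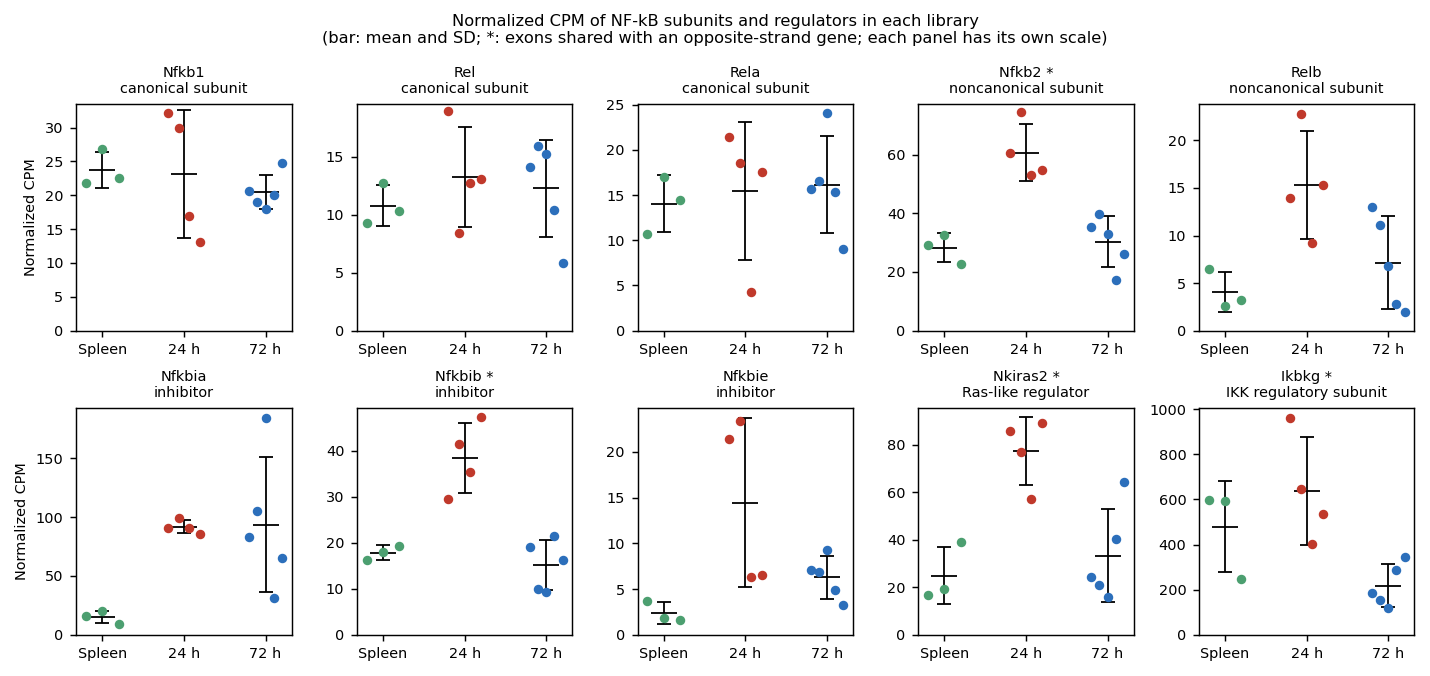
Normalized CPM (vertical axis, each panel on its own scale) of the 10 genes in control splenic (green, n = 3), 24-hour (red, n = 4) and 72-hour (blue, n = 5) neutrophils; points are libraries, bars mean and SD, and stars mark genes that share exons with an opposite-strand gene. The 24-hour points of Nfkb2 (53.0 to 74.4 CPM) and Relb (9.19 to 22.8 CPM) sit above all spleen points, while those of Nfkb1 (13.1 to 32.2 CPM) lie on both sides of them.

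Within each library, the mean log2 CPM of Nfkb2 and Relb was set against the mean of Nfkb1, Rel and Rela. Since CPM depends on gene length, only the change of this difference between groups can be read, not its sign. It was 0.11, -0.81 and -0.68 in the spleen libraries and 0.30, 1.25, 1.11 and 0.97 at 24 hours, with no overlap. At 72 hours it was 0.36, 0.29, -0.28, -0.93 and -0.45, between both groups and overlapping them. The group means were -0.46 ± 0.49 (SD, n = 3), 0.91 ± 0.42 (SD, n = 4) and -0.20 ± 0.54 (SD, n = 5). The 24-hour mean thus lay 1.37 above the spleen mean and the 72-hour mean 0.26 above it. No test is given for this score, because the genes in it were chosen with results known. The pair Nfkb2 and Nfkb1 alone gave 1.20 at 24 hours against spleen and 0.26 at 72 hours. The pair Relb and Rela, neither of which shares exons on the opposite strand, gave 1.75 and 0.35. For that pair the 24-hour libraries were at -0.59, 0.28, 0.96 and -0.18, and the spleen libraries at -0.64, -2.36 and -1.89. The highest 24-hour value, in replicate 3, rests on 6 counts of Rela.

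**Figure D2:**
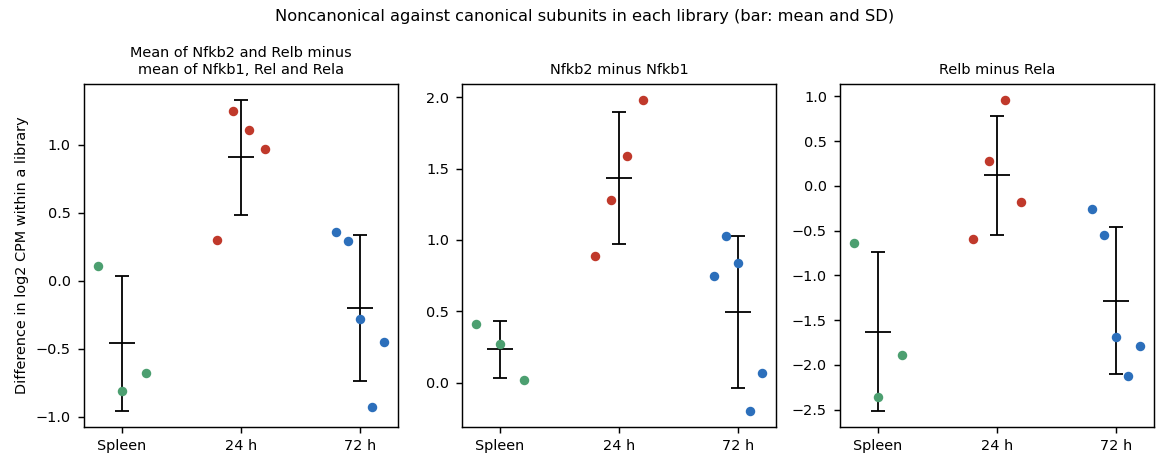
Difference in log2 CPM within each library (vertical axis) between noncanonical and canonical subunits, for the mean of the 5 genes, for Nfkb2 minus Nfkb1 and for Relb minus Rela; points are libraries, bars mean and SD of the group. In the left panel the 24-hour libraries (0.30 to 1.25) lie above all spleen libraries (-0.81 to 0.11), and the 72-hour libraries spread from -0.93 to 0.36.

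The 3 inhibitors were all higher at 24 hours, and Nfkbia alone of them was called at 72 hours against spleen as well. Nfkbia (chr12:55489410-55492647) encodes IκBα, which holds RelA dimers in the cytoplasm and is resynthesised within the feedback loop. It was at 16.2, 19.9 and 9.33 CPM in the spleen and at 90.8, 99.6, 91.2 and 86.1 CPM at 24 hours, an even level with no overlap. At 72 hours it was at 83.0, 105, 184, 31.3 and 65.5 CPM, all above the spleen but spread widely. Nfkbia rose by 2.60 on the log2 scale at 24 hours (SE 0.43, edgeR adjusted p = 0.000489) and by 2.64 at 72 hours (SE 0.42, edgeR adjusted p = 0.000398), and both calls were kept in every fit with a library left out, with edgeR adjusted p up to 0.00492. Without 72-hour replicates 2 and 3 the 72-hour difference was 1.99 (edgeR adjusted p = 0.00249). Between the liver groups the log2 difference of Nfkbia was 0.04 (-0.66 to 0.74, edgeR adjusted p = 0.963).

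Nfkbie (chr17:45555703-45563169) encodes IκBε, another inhibitor of RelA and c-Rel dimers. It was low in the spleen, at 3.71, 1.81 and 1.61 CPM from 5 to 8 counts a library, and at 21.4, 23.4, 6.36 and 6.57 CPM at 24 hours, with replicates 1 and 2 well above replicates 3 and 4 but all above the spleen. Nfkbie rose by 2.62 on the log2 scale at 24 hours (SE 0.60, edgeR adjusted p = 0.00719), and the call was kept with each library left out. At 72 hours it was at 7.05, 6.91, 9.29, 4.86 and 3.24 CPM, above the highest spleen value in 4 of 5 libraries. The 72-hour differences of Nfkbie, 1.45 against spleen (0.24 to 2.66, edgeR adjusted p = 0.180) and -1.17 against 24 hours (-2.14 to -0.20, edgeR adjusted p = 0.153), were not called.

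Nfkbib encodes IκBβ, an inhibitor with slower turnover than IκBα. It was at 16.2, 18.1 and 19.3 CPM in the spleen, at 29.6, 41.4, 35.4 and 47.4 CPM at 24 hours, and at 19.0, 10, 9.29, 21.5 and 16.2 CPM at 72 hours. The 24-hour libraries lay above all others. Nfkbib rose by 1.10 on the log2 scale at 24 hours (SE 0.35, edgeR adjusted p = 0.0466), a call lost without any 1 spleen library, 24-hour replicate 2, 3 or 4 or 72-hour replicate 1, with edgeR adjusted p from 0.0548 to 0.153, and also with no filter on low counts (edgeR adjusted p = 0.0659). It was lower at 72 hours than at 24 hours by a log2 difference of -1.36 (SE 0.30, edgeR adjusted p = 0.0135), and against the spleen it differed by -0.26 (-0.95 to 0.42).

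Nkiras2 (κB-Ras2) encodes a small Ras-like protein that binds IκB proteins. It was at 16.7, 19.2 and 38.9 CPM in the spleen, at 85.8, 76.8, 57.3 and 89.0 CPM at 24 hours, and at 24.4, 21.1, 16.1, 40.3 and 64.2 CPM at 72 hours. Nkiras2 rose by 1.62 on the log2 scale at 24 hours (SE 0.41, edgeR adjusted p = 0.0139), with no overlap with the spleen. It was lower at 72 hours than at 24 hours, by -1.24 (SE 0.35, edgeR adjusted p = 0.0441), although 72-hour replicate 5 lay within the 24-hour range. The first call was lost without spleen replicate 1 or 2 (edgeR adjusted p = 0.088 and 0.0835), and the second without spleen replicate 2, 24-hour replicate 1, 2 or 4 or 72-hour replicate 1, 2 or 3, with edgeR adjusted p from 0.0521 to 0.110.

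Ikbkg, the regulatory subunit of IKK, was lower at 72 hours than in either other group. It was at 599, 593 and 247 CPM in the spleen and at 963, 645, 403 and 537 CPM at 24 hours, groups that overlapped (log2 difference 0.41, -0.32 to 1.14, edgeR adjusted p = 0.493). At 72 hours it was at 185, 154, 119, 288 and 345 CPM, below all 24-hour libraries. Ikbkg was lower at 72 hours than at 24 hours by -1.55 on the log2 scale (SE 0.31, edgeR adjusted p = 0.00745). It was also called lower at 72 hours than in the spleen (-1.14, SE 0.33, edgeR adjusted p = 0.0442), but the groups overlapped, since spleen replicate 3 lay among the 72-hour values, and that call was lost without spleen replicate 1 or 2, 24-hour replicate 2 or 4 or 72-hour replicate 1, 2 or 3, with edgeR adjusted p from 0.0576 to 0.243.

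Per kilobase of exon, the scale on which levels of different genes can be set side by side, the order rests on the assumption that the counted reads come from the gene's own exons, which is unsettled here and above all for Ikbkg, Nkiras2, Nfkbib and Nfkb2. On that scale Ikbkg had the highest mean of the 10 genes in the spleen, at 59.1 ± 24.9 CPM per kilobase (here and below SD), and at 24 hours, at 78.6 ± 29.6. At 72 hours Ikbkg was at 26.9 ± 11.7 CPM per kilobase and Nfkbia at 58.4 ± 35.8, neighbours whose spreads overlapped. In the spleen Nfkbia, at 9.43 ± 3.36 CPM per kilobase, stood beside Nfkbib at 8.25 ± 0.707, Nkiras2 at 6.98 ± 3.41 and Nfkb2 at 6.16 ± 1.09, neighbours that did not differ beyond their spread. At 24 hours Nfkbia had moved away from these, to 57.1 ± 3.45 CPM per kilobase, against 21.6 ± 4.00 for Nkiras2, 17.8 ± 3.54 for Nfkbib and 13.2 ± 2.10 for Nfkb2. Among the subunits, Rela (4.58 ± 1.05 CPM per kilobase in the spleen, 5.03 ± 2.49 at 24 hours) lay below Nfkb2 by its mean in both groups, though in the spleen by no more than the spread. Nfkb1 (1.97 ± 0.221), Rel (1.44 ± 0.236), Relb (1.05 ± 0.544) and Nfkbie (0.781 ± 0.382) were the lowest in the spleen. At 24 hours Relb, at 3.94 ± 1.45 CPM per kilobase, and Nfkbie, at 4.74 ± 3.03, stood above Nfkb1 (1.92 ± 0.782) and Rel (1.78 ± 0.579) by their means.

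In all, 6 of the 10 genes were called higher at 24 hours than in the spleen, where 9.75% of all tested genes were called and 5.35% were called higher. These 6 are Nfkb2, Relb, Nfkbia, Nfkbib, Nfkbie and Nkiras2, and in each of them the groups did not overlap, against 22.8% of all tested genes in either direction and 9.76% with the liver higher. The median log2 difference of the 10 genes was 1.10, beside -0.23 over all tested genes. At 72 hours against spleen 1 gene was called higher (Nfkbia) and 1 lower (Ikbkg), where 5.33% of all tested genes were called, 2.63% higher and 2.71% lower. Nfkbia was the only 1 of the 10 whose groups did not overlap in that comparison; 5.59% of all tested genes lay without overlap with the liver higher. Nfkb2 and Relb were singled out by the study in these same samples, so their counts here are not independent evidence of a direction. The count at 24 hours was 2 without spleen replicate 1 or 2, where all genes called fell from 1218 to 575 and 611. It was 3 without spleen replicate 3, where all genes called were 1295, and the 3 were Nfkbia, Nfkbie and Nkiras2. It was 3 without 24-hour replicate 2 and 4 without 24-hour replicate 4, the library rich in ambiguous reads, with 957 and 902 of all genes called. Nfkbia and Nfkbie were called at 24 hours in every fit with 1 library left out.

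**Figure D3:**
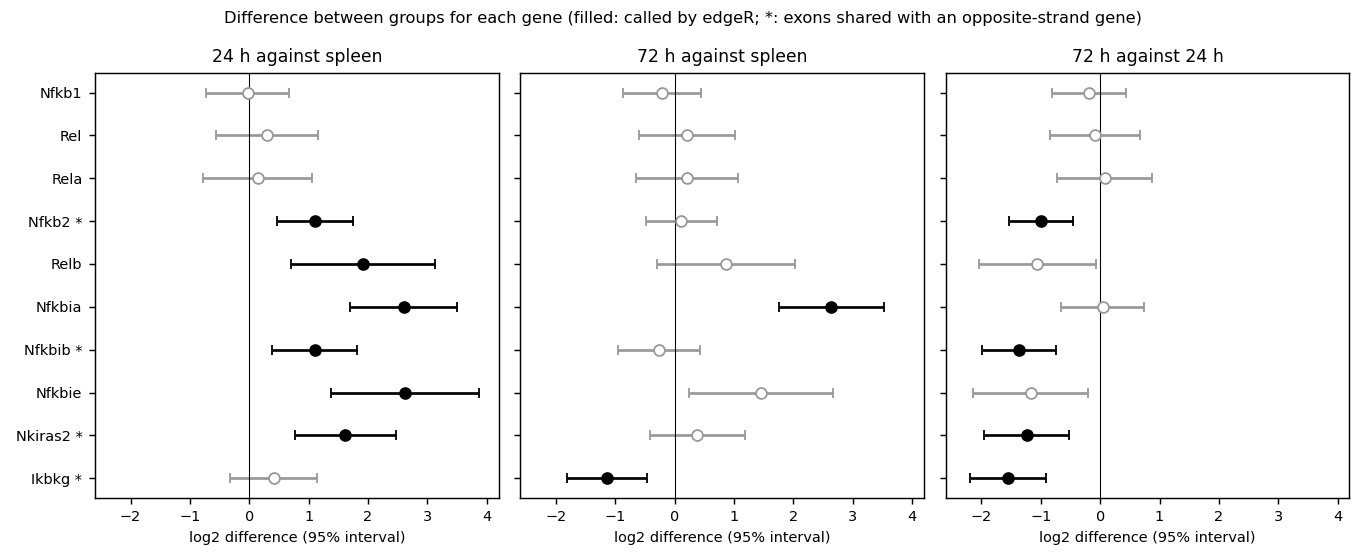
Log2 difference between groups (horizontal axis) with its 95% interval for the 10 genes in the 3 comparisons, from the edgeR fit; filled points were called and stars mark opposite-strand exon overlap. In the left panel Nfkb1, Rel, Rela and Ikbkg sit near 0 (-0.03 to 0.41) and the other 6 genes between 1.10 and 2.62, whereas in the right panel the 4 filled points, from -1.55 to -0.99, all carry a star.

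Between the liver groups, 4 of the 10 genes were called lower at 72 hours than at 24 hours and none higher, where 4.49% of all tested genes were called and 2.84% were called lower. In 3 of them, all but Nkiras2, the groups did not overlap, against 5.02% of all tested genes in that direction. The 4 genes, Nfkb2, Nfkbib, Nkiras2 and Ikbkg, are the same 4 that share exons with an opposite-strand gene, which was noticed after the values were seen. Of the other 6, Relb and Nfkbie had differences of similar size (-1.06 and -1.17) that were not called, and Nfkb1, Rel, Rela and Nfkbia lay between -0.19 and 0.08. Among all tested genes, 6.82% of those with opposite-strand exon overlap were called in this comparison and 2.95% of those without; at 24 hours against spleen the shares were 12.8% and 7.73%. Without 72-hour replicates 2 and 3, none of the 4 was called, while 197 of all tested genes were, with edgeR adjusted p of 0.054 for Nfkb2, 0.0564 for Ikbkg, 0.108 for Nfkbib and 0.229 for Nkiras2, and log2 differences of -1.20, -1.23, -1.02 and -0.85. The count was 2 without 24-hour replicate 1, 2 or 4 or 72-hour replicate 1 or 3, and all genes called in these fits were 182, 252, 390, 309 and 244, against 561 with all libraries.

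Of the 7 partners on the opposite strand 6 were tested, and all 6 had a negative log2 difference at 72 hours against 24 hours, the direction in which the 4 genes were called; 1 of the 6, Psd, was called. Psd, a gene for an exchange factor of Arf6 and the neighbour of Nfkb2, was at 314, 288 and 315 CPM in the spleen, 672, 648, 796 and 924 CPM at 24 hours, and 459, 511, 563, 336 and 373 CPM at 72 hours. Per kilobase of exon, Psd stood at 40.0, 99.4 and 58.7 CPM on average, above Nfkb2 at 6.16, 13.2 and 6.59 CPM in the same order. Psd rose by 1.31 on the log2 scale at 24 hours (SE 0.23, edgeR adjusted p = 7e-04) and was lower at 72 hours than at 24 hours by -0.76 (SE 0.19, edgeR adjusted p = 0.0258), both in the direction of Nfkb2. AC114539.1, the other partner of Nfkb2, is not analysed here.

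Sirt2, a deacetylase gene beside Nfkbib, fell where Nfkbib rose: it was at 187, 211 and 108 CPM in the spleen and 90.8, 76.2, 73.5 and 58.4 CPM at 24 hours, a log2 difference of -1.18 (SE 0.26, edgeR adjusted p = 0.00527). Ccer2, which shares more bases with Nfkbib, had mean levels of 5.14 CPM in the spleen, 12.6 at 24 hours and 4.76 at 72 hours. Its log2 differences, 1.29 at 24 hours against spleen (-0.04 to 2.63, edgeR adjusted p = 0.207) and -1.37 at 72 hours against 24 hours (-2.54 to -0.21, edgeR adjusted p = 0.165), beside 1.10 and -1.36 for Nfkbib, were not called. Sirt2 differed by -0.37 between the liver groups (-0.86 to 0.11, edgeR adjusted p = 0.37). G6pdx, the first enzyme of the pentose phosphate pathway and the partner of Ikbkg, was at 66.6 ± 27.1, 59.1 ± 13.5 and 39.0 ± 8.48 CPM (SD) in the 3 groups and was not called, with -0.59 at 72 hours against 24 hours (-1.16 to -0.02, edgeR adjusted p = 0.222). In the spleen both Ikbkg and G6pdx were lowest in replicate 3. Of the partners of Nkiras2, Dnajc7 was at 41.1 ± 18.6, 49.1 ± 17.4 and 35.5 ± 2.32 CPM (SD) and Zfp385c at 30.9 ± 11.3, 39.5 ± 12.5 and 19.2 ± 7.56 CPM (SD), with no call in either. Between the liver groups Zfp385c differed by -1.07 (-1.76 to -0.37, edgeR adjusted p = 0.0692), with groups that did not overlap, beside -1.24 for Nkiras2, and Dnajc7 by -0.47 (-1.08 to 0.15, edgeR adjusted p = 0.387). The part of the partners in the levels of the 4 genes was not tested.

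**Figure D4:**
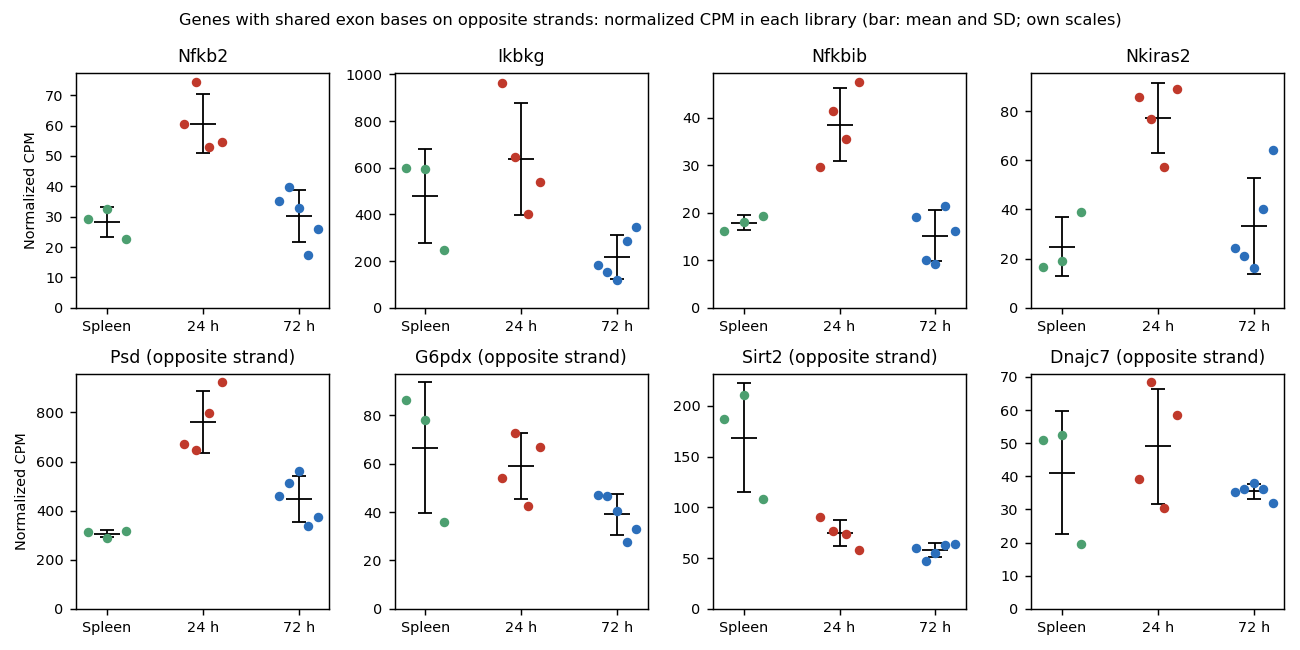
Normalized CPM per library (vertical axis, each panel on its own scale) of the 4 genes with opposite-strand exon overlap (upper row) and of 1 partner of each (lower row) in spleen, 24-hour and 72-hour neutrophils; points are libraries, bars mean and SD. Nfkb2 and Psd are both highest at 24 hours (60.6 and 760 CPM on average), while Sirt2 is highest in the spleen (169 CPM) where Nfkbib is at 17.9 CPM.

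The 72-hour libraries differed among themselves over the whole table. Chi-square over degrees of freedom was 5.63 between replicates 4 and 5 and 7.25 to 10.99 among replicates 1 to 3, against 16.64 to 31.49 between these sets, and the 10 genes are some of many that differed. In Nfkb2, Relb, Rel, Rela, Nfkbia and Nfkbie, 6 of the 10 genes, replicates 4 and 5 held the lowest 2 of the 5 values, and in Nkiras2 and Ikbkg they held the highest 2. Replicates 4 and 5 also had the fewest counts on genes of all libraries, 1267089 and 1493236. Replicates 2 and 3, the libraries with few unaligned reads, held the lowest 2 values of Ikbkg, Nkiras2, Nfkbib and Nfkb1. Replicate 1, whose share of unaligned reads was 50.7%, lay nearer to replicates 2 and 3 than to 4 and 5 for Relb (13.0 CPM), Nfkb2 (35.2 CPM) and Ikbkg (185 CPM). This did not hold for all 10 genes. For Nfkbib replicate 1 (19.0 CPM) lay nearer to replicates 4 and 5 (21.5 and 16.2 CPM) than to 2 and 3 (10 and 9.29 CPM). The part of the unaligned share in these values was not tested. These libraries were not compared as groups, since they were noticed through the values themselves.

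Of 73 other genes of the pathway, listed by role, 66 were tested. At 24 hours 17 were called higher and 1 lower, at 72 hours 18 higher and none lower, and between the liver groups 2 higher; all tested genes had 9.75%, 5.33% and 4.49% called in the same comparisons. The median log2 difference over the 66 was 0.45 at both times, beside -0.23 and -0.02 over all tested genes. Of the 18 genes called at 24 hours, 4 share exons with an opposite-strand gene, as do 6 of the 18 called at 72 hours. Without 72-hour replicates 2 and 3, 9 of the 18 genes were called at 72 hours, while all genes called fell from 666 to 287. Without 24-hour replicate 4, 15 of the 18 were called at 24 hours, and without spleen replicate 3 it was 15 of 18 at each time, where Ier3, Bcl2l1 and Tnf were lost at 24 hours (edgeR adjusted p from 0.0554 to 0.122) and Ier3, Gadd45b and Nfkbil1 at 72 hours (edgeR adjusted p from 0.0524 to 0.0674).

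The other IκB proteins were higher in both liver groups for 3 of 5 genes. Nfkbiz, which encodes the nuclear co-regulator IκBζ, was at 11.1, 15.2 and 18 CPM in the spleen, 30.3, 40.2, 21.9 and 29.2 CPM at 24 hours and 34.7, 49.4, 48.9, 45.9 and 48.0 CPM at 72 hours. It rose by 1.03 (SE 0.31, edgeR adjusted p = 0.0374) and 1.61 (SE 0.30, edgeR adjusted p = 0.0016) on the log2 scale. Nfkbid, the gene of the nuclear IκBNS, rose by 1.64 (24 hours, edgeR adjusted p = 0.0274) and by 2.92 (72 hours, adjusted p = 0.000309), from 6.85 CPM in the spleen to 21.8 and 52.0 CPM. Both had their highest mean at 72 hours, a difference between the liver groups that was called for neither. Without 24-hour replicate 4 the 24-hour calls of Nfkbiz and Nfkbid were lost (edgeR adjusted p = 0.06 and 0.0972). Nfkbil1 rose by 2.45 and 1.49 (edgeR adjusted p = 0.000495 and 0.0216), and it shares 287 exon bases on the opposite strand; without 72-hour replicates 2 and 3 its 72-hour call was lost (edgeR adjusted p = 0.291). Bcl3, a co-regulator of p50 and p52, was at 20.6, 37.9 and 28.1 CPM and was not called (edgeR adjusted p = 0.105 at 24 hours).

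The kinases upstream of the subunits were mostly not called. Chuk and Ikbkb, the catalytic subunits of IKK, had log2 differences of -0.63 and 0.06 at 24 hours (edgeR adjusted p = 0.508 and 0.954) and of -0.21 and 0.76 at 72 hours (edgeR adjusted p = 0.910 and 0.433). Map3k14, the kinase that starts the noncanonical arm, was at 4.71 CPM in the spleen, 3.77 at 24 hours and 8.95 at 72 hours, with log2 differences of -0.32 (-1.69 to 1.05) and 0.97 (-0.25 to 2.19) that were not called. The 1 kinase of 10 that was called was Ikbke, a relative of the IKK kinases that acts in interferon responses. It was at 0.928, 2.17 and 1.93 CPM in the spleen and 35.9, 31.8, 24.8 and 29.2 CPM at 24 hours, and rose by 4.10 on the log2 scale (SE 0.89, edgeR adjusted p = 0.00503). At 72 hours Ikbke was at 28.2, 53.5 and 47.7 CPM in replicates 1 to 3 and at 0 and 3.89 CPM in replicates 4 and 5, and the difference from the spleen was 3.95 (SE 0.87, edgeR adjusted p = 0.00676), a call lost without replicates 2 and 3 (2.64, edgeR adjusted p = 0.109). Ikbke shares 224 exon bases on the opposite strand.

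Of 16 adaptors and ubiquitin ligases tested, 1 was called. Traf6, the ligase downstream of the IL-1 and Toll-like receptors, was at 18.6, 27.9 and 21.2 CPM in the spleen and at 6.31, 1.80, 10.6 and 13.1 CPM at 24 hours, and fell by 1.52 on the log2 scale (SE 0.45, edgeR adjusted p = 0.0337). Traf3 and Birc3, which restrain Map3k14, were at 8.28 and 22.1 CPM in the spleen and 7.31 and 21.2 CPM at 24 hours, with log2 differences of -0.18 (-1.19 to 0.84) and -0.05 (-0.80 to 0.70). Traf2, named with them above, was at 1.44 CPM in the spleen from 2 to 5 counts a library, 0 at 24 hours and 1.72 CPM at 72 hours. Its 24-hour libraries overlapped neither other group. From these few counts neither difference was called (edgeR adjusted p = 0.0609 against spleen and 0.0579 for 72 against 24 hours). Of the receptors of the noncanonical arm, 4 of 7 were tested and none was called at any time; Cd40 and Tnfrsf13c were at 0 in all spleen and 24-hour libraries. Of the 4 tested receptors of the canonical arm, Tlr2 rose by 1.27 at 24 hours and 1.55 at 72 hours (edgeR adjusted p = 0.00931 and 0.00169), from 13.3 CPM in the spleen to 32.2 and 39.1 CPM.

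Among 8 tested feedback enzymes, 2 were called at 24 hours and 1 at 72 hours. Tnfaip3, which encodes the deubiquitinase A20 that shuts off IKK, was at 2.78, 1.09 and 4.50 CPM in the spleen, 35.9, 27.6, 25.5 and 14.6 CPM at 24 hours, and 15.7, 46.3, 47.4, 4.17 and 9.73 CPM at 72 hours. It rose by 3.17 (SE 0.69, edgeR adjusted p = 0.00464) and 3.14 (SE 0.67, edgeR adjusted p = 0.00482) on the log2 scale, with 1 72-hour library inside the spleen range. The 72-hour difference of Tnfaip3 was 1.81 without 72-hour replicates 2 and 3 and was then not called (edgeR adjusted p = 0.122). Tnip1, a partner of A20, rose by 2.04 at 24 hours (SE 0.51, edgeR adjusted p = 0.0138).

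Target genes of the pathway were called higher in 10 of 19 at 24 hours and 12 of 19 at 72 hours, with none lower; their median log2 differences were 1.82 and 2.14. Without 72-hour replicates 2 and 3, 6 of 19 were called at 72 hours (Ccl3, Ccl4, Cxcl2, Il1b, Pim1 and Ptgs2), and Icam1, Cxcl1, Ier3, Csf1, Gadd45b and Tnfaip2 were not, with edgeR adjusted p from 0.109 to 0.241. Without 24-hour replicate 4, 9 of 19 were called at 24 hours, Tnf being lost (edgeR adjusted p = 0.0804), and without spleen replicate 3, 7 were called at 24 hours and 10 at 72 hours. Cxcl2, a neutrophil chemokine, had at most 2 counts in any spleen library and was at 157, 232, 117 and 199 CPM at 24 hours and 222, 544, 653, 65.3 and 190 CPM at 72 hours. Cxcl1 and Ccl4 likewise had at most 2 counts in any spleen library, and their means at 24 and 72 hours were 11 and 12.4 CPM for Cxcl1 and 14.1 and 14.3 CPM for Ccl4. All 3 were called higher at both times, and no fold is given for them because it would rest on these few counts. Icam1, the endothelial and leukocyte adhesion molecule, rose by 2.78 and 2.37 on the log2 scale (edgeR adjusted p = 0.00296 and 0.0100), and Ccl3 by 3.46 and 3.37 (edgeR adjusted p = 0.000514 and 0.000628). Pim1 rose by 2.28 and 2.30 (edgeR adjusted p = 0.000134 and 9.76e-05), and Ier3, an early response gene, by 2.14 and 2.19 (edgeR adjusted p = 0.0159 and 0.014).

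Some targets were called at 1 of the times. Tnf (1.82, edgeR adjusted p = 0.0411) and Bcl2l1 (2.47, edgeR adjusted p = 0.0313) rose at 24 hours. Il1b (2.14, edgeR adjusted p = 0.000269), Gadd45b (2.24, edgeR adjusted p = 0.013), Csf1 (2.13, edgeR adjusted p = 0.0125) and Tnfaip2 (1.09, edgeR adjusted p = 0.0221) rose at 72 hours. The difference between the times was itself called for Il1b, which was 1.71 higher at 72 hours than at 24 hours (SE 0.29, edgeR adjusted p = 0.00223), and for Ptgs2, the gene of cyclooxygenase-2, which was 2.19 higher (SE 0.43, edgeR adjusted p = 0.00718), and for no other target gene. The call between the times was kept for Il1b (1.21, edgeR adjusted p = 0.0133) and lost for Ptgs2 (1.32, edgeR adjusted p = 0.0686) without 72-hour replicates 2 and 3. Ptgs2 was at 46.0, 37.2, 96.2 and 149 CPM at 24 hours and 259, 505, 739, 158 and 195 CPM at 72 hours, with no overlap, and had already risen by 4.41 at 24 hours (edgeR adjusted p = 8e-05). Nfkb2, Nfkbib, Nkiras2 and Ikbkg were lower at 72 hours than at 24 hours, while no target gene was called lower in that comparison with all libraries; without 72-hour replicates 2 and 3 none of these 4 was called and 1 target gene, Sod2, was called lower.

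**Figure D5:**
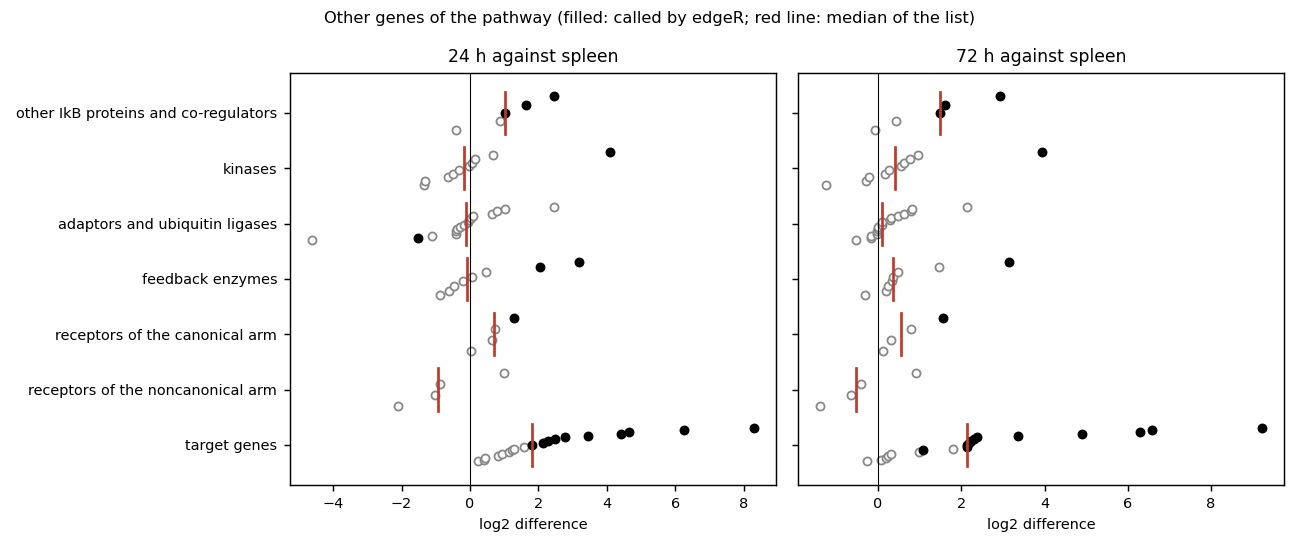
Fitted log2 difference from the spleen (horizontal axis) of the 66 tested genes of the pathway, by role (rows), at 24 hours (left) and 72 hours (right); filled points were called by edgeR and red lines are list medians. Target genes lie to the right of 0 in 19 of 19 cases at 24 hours and 18 of 19 at 72 hours (medians 1.82 and 2.14), and the differences of Cxcl1, Cxcl2 and Ccl4 rest on at most 2 counts in any spleen library.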

How the data were processed

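Neutrophil RNA of 12 samples was sequenced from libraries of a stranded kit. The labels give a group and a replicate number and do not say how many mice went into a sample. Per the submitters' processing notes the aligner was STAR 2.7.9a with GRCm38, and the authors counted reads per gene with HTSeq-count; they deposited whole-number counts of 48709 genes without normalization or filtering, with 5 summary rows, which entered neither library sizes nor tests. Of the genes, 48349 matched GENCODE M21 by identifier. The counts on genes, 1267089 to 3017403 per library, leave genes of a few CPM with large counting error.

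In R 4.3.3, genes above 1 CPM in at least 3 libraries were kept (12488) and tested with edgeR 4.0.16 (TMM, quasi-likelihood, Benjamini-Hochberg). The study used limma-voom, which is an alternative here because the table holds counts. Normalized CPM are counts divided by the TMM-scaled library size; log2 CPM use a prior count of 2. Intervals are at 95%. Exon overlap counts the annotated exon bases of a gene that lie in exons of genes on the other strand.

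The members and lists were chosen with earlier results of these data known. The text names the 10 members, their opposite-strand partners, every called gene of the pathway lists, 8 pathway genes fixed by name, and the 3 tested genes nearest in pattern to each of Nfkbia, Nfkb2 and Relb. Outside this rule, Cd40, Tnfrsf13c and marker genes are named for being at 0, chosen after their values were seen. The 12 libraries came from labelled groups, and all 19 replicate pairs differed by more than sampling noise (chi-square over degrees of freedom 2.34 to 34.13). The fit was tested on simulated data with known differences, where estimates followed the true size but most differences, and nearly all of the smallest, were not called. The test's first criterion, a minimum share called, was not met and was relaxed to a share that rises with the size, so an absent call says little. Alternatives were other scalings, filters, fold limits and tests (DESeq2 1.42.0; limma-voom in limma 3.58.1), fits of 2 groups, a replicate block, genes without opposite-strand overlap, and leaving out libraries. The qPCR data, naive liver neutrophils of another series and proteins were not analysed here.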

Additional observations from a re-analysis of the deposited data

Results flagged for a closer look

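For 4 of the 10 genes the effect at 24 hours and that at 72 hours differed by a test of the difference itself, taken in the fit of all 12 libraries. The log2 difference of 72-hour minus 24-hour neutrophils was -0.99 for Nfkb2 (edgeR adjusted p = 0.0329), -1.36 for Nfkbib (edgeR adjusted p = 0.0135), -1.24 for Nkiras2 (edgeR adjusted p = 0.0441) and -1.55 for Ikbkg (edgeR adjusted p = 0.00745). Since both effects are taken against the same 3 spleen libraries, each of these equals the direct difference between the liver groups. Of all tested genes 4.49% were called in this comparison and 2.84% were called lower, and without 72-hour replicates 2 and 3 none of the 4 was called (edgeR adjusted p from 0.054 to 0.229). All 4 genes share exon bases with a gene on the opposite strand, and the part of those partners in the difference was not tested.

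The reads that HTSeq-count could not assign to 1 gene, which the comparisons do not use, made up 7.36% of counted and ambiguous reads in 24-hour replicate 4, against 0.647% to 1.15% in the other libraries, the 3 control spleens included. Without that library Nfkb2, Nfkbia, Nfkbie and Nkiras2 were called at 24 hours and Relb (edgeR adjusted p = 0.0683) and Nfkbib (edgeR adjusted p = 0.113) were not. Dixon's criterion for an outlying library was applied to the 20 pairs of gene and liver group, where chance alone would give about 1 in 20. Its outcome for Rela at 24 hours depends on the scale, so no result is drawn from it. Rela in 24-hour replicate 3, from 6 counts, was at 2.38 log2 CPM, against 4.49, 4.29 and 4.21 in replicates 1, 2 and 4.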

How the results depend on the processing

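Among the 30 differences of the 10 genes, 708 values were computed under alternatives; 623 kept direction and side of the threshold, 51 lost a call, 0 gained one and 34 changed sign, 0 of these among called differences. Samples with the same number in their labels were not seen to be more alike (10 pairs, r across genes from -0.116 to 0.13, 1 above 0.1). Pairs of unlike number ranged from -0.153 to 0.161, so this check cannot settle whether samples were paired. With the numbers as a replicate block, Nfkbib at 24 hours was lost (0.94, edgeR adjusted p = 0.12) and 4 pathway genes were called between the liver groups. Nfkbib at 24 hours was also lost with no filter (1.08, edgeR adjusted p = 0.0659), and Nfkb2 at 72 against 24 hours with a fold limit of 1 (-0.99). Fits limited to genes without opposite-strand overlap test fewer genes, hold 6 of the 10 and called 3, 1 and 0 of them at 24 hours against spleen, 72 hours against spleen and 72 against 24 hours, with 556, 363 and 151 of all genes and, in the last, 1 pathway gene. Without 72-hour replicates 2 and 3, 1 and 0 of the 10 were called in the latter 2 comparisons, with 287 and 197 of all genes, and 9 pathway genes against the spleen. Upper-quartile scaling, filterByExpr and 2-group fits called 1 of the 10 at 72 hours against spleen, where Ikbkg was lost (edgeR adjusted p = 0.0516, 0.0594 and 0.0703). Between the liver groups, the Wald test of DESeq2 called 986 genes and 4 pathway genes, and no filter gave 8 pathway genes. With 1 library left out, the 3 comparisons called 2 to 6, 1 to 2 and 2 to 4 of the 10, 575 to 1320, 314 to 835 and 182 to 796 of all genes, and 12 to 20, 12 to 20 and 2 to 5 pathway genes. The causes were not tested. A fit without 72-hour replicates 4 and 5 was also run and withdrawn, because these libraries had been noticed through the measured values; it is not among the values above. Sign changes were all in log2 differences that were not called. Against spleen at 24 hours these were Nfkb1 (0.043 by upper-quartile scaling, 0.0066 with the block, 0.099 without overlapping genes, -0.24 to 0.15 with 1 library left out) and Rela (-0.039 by limma-voom, -0.065 to 0.44). Against spleen at 72 hours they were Rel, Rela, Nfkb2 and Nfkbib without replicates 2 and 3 (-0.078, -0.073, -0.097 and 0.079), Nkiras2 with the block (-0.19) and Nfkb2 with 1 library left out (-0.023 to 0.25). Between the liver groups they were Nfkb1 (-0.38 to 0.015 with 1 left out), Rel (0.076 with the block, -0.26 to 0.13) and Rela (-0.0066 by upper-quartile scaling, -0.090 without overlapping genes, -0.21 without replicates 2 and 3, -0.23 to 0.28), and Nfkbia, which was at -0.0016 with DESeq2 size factors, -0.055 by upper-quartile scaling, -0.0056 by the Wald test, -0.11 by limma-voom, -0.038 with the block, -0.15 without overlapping genes, -0.61 without replicates 2 and 3 and -0.36 to 0.26 with 1 left out.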

Other observations

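The genes whose pattern over the 12 libraries was nearest to that of Nfkbia, by the root mean square difference of mean-centred log2 CPM, were Acod1 (0.222), Pim1 (0.338) and Ier3 (0.349), against a median of 1.412 over all tested genes. Acod1, which encodes the enzyme that makes itaconate, was at 12.1, 13.0 and 7.07 CPM in the spleen, 83.3, 65.4, 82.7 and 72.9 CPM at 24 hours, and 58.6, 95, 125, 16.7 and 55.8 CPM at 72 hours. Its lowest and highest 72-hour libraries, replicates 4 and 3, are those of Nfkbia. Pim1 and Ier3 are on the list of target genes, and Pim1 shares exons with an opposite-strand gene.

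The genes nearest to Nfkb2 were Zranb1 (0.174), Adamts7 (0.221) and Gm19918 (0.222), against a median of 0.914. Like Nfkb2 all 3 share exon bases with a gene on the opposite strand, as do 39.8% of all tested genes. Zranb1 was at 192, 186 and 187 CPM in the spleen, 466, 412, 297 and 373 CPM at 24 hours, and 251, 276, 239, 129 and 195 CPM at 72 hours. Nearest to Relb were Riox2 (0.34), Atrnl1 (0.4) and Gm15190 (0.446), against a median of 1.197. Of these, Riox2 shares exon bases with an opposite-strand gene and Atrnl1 and Gm15190 do not. Riox2 was at 66.9 to 80.3 CPM in the spleen and 212 to 314 CPM at 24 hours, and at 72 hours it was at 64.6 and 64.9 CPM in replicates 4 and 5 and at 134 to 173 CPM in the other 3.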
